A study of Mus musculus with 18 samples.

Results

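The genes described here code for the enzymes and the chaperone that turn a newly made procollagen chain into a mature, cross-linkable collagen. They were chosen by name from what they do in collagen maturation, and all 10 of the 10 genes listed were found among the 55450 genes of the deposited table. RNA was sequenced from mouse embryonic fibroblasts (MEF), cultured connective tissue cells obtained from a cell repository, in 18 libraries that fall into 6 groups of 3. The cells were transiently transfected with an empty pcDNA3 vector, with Col1a1-miR-29b or with CMV-miR-29b, and each vector was studied without TGF-β and with 20 ng/ml TGF-β for 24 h, added 6 h after transfection. Col1a1-miR-29b drives a human miR-29b-1 sequence and EGFP from a rat collagen 1a1 promoter, CMV-miR-29b drives the same insert from the viral CMV promoter, and both also carry mRFP under an SV40 promoter, which the empty vector is not described to hold. Per the study, DNA was dosed by molar amount, so its mass was larger for Col1a1-miR-29b than for CMV-miR-29b. The mass of the empty vector is not stated, and vector and DNA mass cannot be told apart here. All 6 groups share the transfection, so none shows untransfected cells, and the study describes 3 repeated experiments for each group without saying which libraries belong to the same experiment.

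Collagen chains are modified in the endoplasmic reticulum before they fold. Prolyl 4-hydroxylase, whose catalytic alpha subunits are P4ha1, P4ha2 and P4ha3, hydroxylates prolines and so lets the triple helix stand body temperature, and P3h1 hydroxylates a few prolines at another carbon. The lysyl hydroxylases Plod1, Plod2 and Plod3 prepare lysines for cross-links, with Plod2 known for the cross-links of fibrotic tissue. Serpinh1 (Hsp47) is a chaperone that binds the folded helix, while outside the cell Bmp1 cuts off the C-propeptide and Pcolce enhances that cut. TGF-β is the best known inducer of collagen in fibroblasts, and miR-29b is a small RNA known to lower many collagen messages through sites in their 3' UTR.

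Total counts per library ran from 65898017 to 80332633, with a median of 74155860. The hairpin gene Mir29b-1 served as a check of the vectors: it had 0 counts in all 6 empty vector libraries, 0 to 1 in untreated and 2 to 6 in treated Col1a1-miR-29b cells, 110 to 309 in CMV-miR-29b cells without TGF-β and 203 to 293 with TGF-β. Poly(A) libraries do not measure the mature miRNA, so these counts check the labels of the CMV-miR-29b libraries, which stood apart from the rest, and are too few to check those of the Col1a1-miR-29b libraries. Of the fibroblast markers, Col1a1, Col1a2 and Vim were abundant, while Thy1 did not exceed 0.02 FPKM (the authors' unit scaled for transcript length and sequencing depth). The 3 immune markers together did not exceed 0.0305 FPKM in any library. The 3 epithelial markers together stayed under 1.42 FPKM and the 3 endothelial ones under 0.519 FPKM, while the 3 muscle markers summed to 3.45 to 5.10 FPKM. In empty vector cells the epithelial sum ran from 0.267 to 0.460 FPKM without TGF-β and from 0.652 to 1.247 FPKM with it, and the endothelial sum from 0.164 to 0.238 and from 0.392 to 0.507 FPKM; the part of these markers in the results below was not tested.

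The sequence that both vectors deliver and its matches in the collagen maturation genes were read from RefSeq and from the GRCm38 genome, because the comparison of the vectors turns on them. The mouse mature miRNAs of the family share 1 seed, bases 2 to 8, which is printed in capitals.
mmu-miR-29a-3p: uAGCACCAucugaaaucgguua
mmu-miR-29b-3p: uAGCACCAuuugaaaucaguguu
mmu-miR-29c-3p: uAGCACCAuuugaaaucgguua
The longest annotated 3' UTR of each gene was searched on the transcript strand for TGGTGCT, which pairs with the whole seed, and for GGTGCTA, whose letters before the final A pair with bases 2 to 7. Where the overlapping letters TGGTGCTA occur, the match is called an 8mer. A match was found in 3 of the 10 genes, in 10 of the 11 genes for fibrillar procollagens (all but Col11a2) and in 18.1% of the 14320 genes tested that have an annotated 3' UTR. The 3' UTRs of the 10 genes were shorter than most, with a median of 731.5 bases against 1088.5 bases over the genes tested. The 3 matches are shown with their surroundings, with the matching letters in capitals, followed by 1 match each from Col1a1 and Col3a1.
P3h1, 3' UTR, plus strand, match at chr4:119248193-119248200: agccttctgcaTGGTGCTActgttcttgga
Plod1, 3' UTR, minus strand, match at chr4:147910528-147910534: ggggctgcccaTGGTGCTcccactaatct
Serpinh1, 3' UTR, minus strand, match at chr7:99346057-99346063: tgagacacatgGGTGCTAttgtgggggga
Col1a1, 3' UTR, plus strand, match at chr11:94952538-94952545: gaaggaatttcTGGTGCTAtagaagctgag
Col3a1, 3' UTR, plus strand, match at chr1:45348982-45348989: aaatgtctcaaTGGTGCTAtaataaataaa
P3h1 and the 2 collagens hold an 8mer, Plod1 holds the seed match without the final A, and Serpinh1 holds the match with the A alone. P4ha1, P4ha2, P4ha3, Plod2, Plod3, Bmp1 and Pcolce hold neither set of letters in this window. A match is a description of letters and does not show that the miRNA acts there.

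Levels can be compared between genes only per length, so the order of the 10 genes is given in FPKM over the 16 libraries with usable FPKM values. Serpinh1 had the highest median, 196.0 FPKM (range 160.2 to 494.1), followed by P4ha1 at 180.01 FPKM (168.6 to 213.0), and the ranges of these 2 genes overlapped. Plod2 (median 78.6 FPKM, range 69.8 to 87.5) and P4ha2 (68.8 FPKM, 60.3 to 73.3) came next, also with overlapping ranges. Plod3 had 30.6 FPKM (27.6 to 34.3), Pcolce 27.1 FPKM (21.6 to 35.1) and Plod1 21.99 FPKM (18.5 to 25.3), each overlapping its neighbour in that order. P3h1 followed at 14.3 FPKM (11.9 to 17.1). The lowest medians were those of Bmp1, 8.89 FPKM (5.79 to 12.4), and P4ha3, 5.26 FPKM (3.21 to 6.99). The range of P4ha1 lay wholly above that of Plod2, that of P4ha2 above that of Plod3, and that of Plod1 above that of P3h1.

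Within each hydroxylase family 1 gene supplied most of the message. In empty vector cells without TGF-β, P4ha1 made up 71.5% ± 1.33 (SD, n = 3) of the summed FPKM of the prolyl 4-hydroxylase alpha subunits, P4ha2 27.2% ± 1.35 and P4ha3 1.35% ± 0.0556. With TGF-β the share of P4ha3 was 2.38% ± 0.0986 and that of P4ha1 69.5% ± 1.63. Among the lysyl hydroxylases, Plod2 held 59.2% ± 1.03 without TGF-β and 64.1% ± 1.63 with it. The share of Plod3 was 24.04% ± 0.638 without TGF-β and 21.1% ± 0.366 with it, and that of Plod1 was 16.8% ± 0.504 and 14.7% ± 1.39. The ranges of the Plod2 and Plod3 shares did not overlap between the untreated and treated libraries of empty vector cells.

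**Figure D1:**
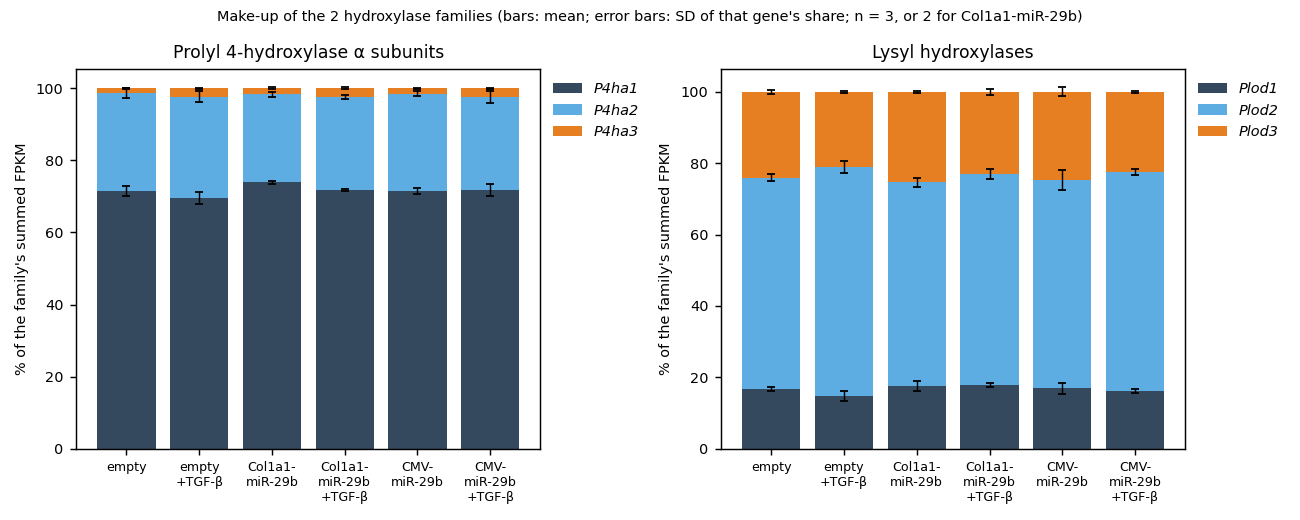
Stacked bars of the mean share of each gene in the summed FPKM of the prolyl 4-hydroxylase alpha subunits (left) and of the lysyl hydroxylases (right), in percent, for the 6 groups; error bars are the SD of the gene's own share over 3 libraries, or 2 for the Col1a1-miR-29b groups. P4ha1 holds about 70% of its family in every group (69.5% to 73.9%) and P4ha3 no more than 2.42%, while Plod2 holds 57.1% to 64.1% of the lysyl hydroxylases.

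The first question was which of these genes respond to TGF-β in cells with the empty vector. P4ha3, Bmp1 and Plod2 rose and Pcolce fell, while P4ha1, P4ha2, P3h1, Plod1, Plod3 and Serpinh1 did not pass the threshold, an adjusted p under 0.05 in edgeR's quasi-likelihood test with Benjamini-Hochberg adjustment over all 21161 genes tested. Thus 3 of 10 rose, where 3.88% of all genes tested did, and 1 of 10 fell, where 2.01% of all genes did. The median log2 fold change of the 10 genes was 0.13, against 0.0023 over all genes tested. In bulk RNA, fewer cells that express a gene and less of its RNA per cell cannot be told apart. All 10 genes passed the filter on low counts, and the same 4 genes passed the threshold in each of the 16 alternative fits.

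P4ha3 (chr7:100285520-100319699, plus strand), the least abundant prolyl 4-hydroxylase subunit, had the largest rise. Its normalised read counts, scaled to the mean library size, were 846, 870.2 and 908 in libraries c, d and e of untreated empty vector cells and 1661, 1572 and 1615 in those with TGF-β. The treated libraries all lay above the untreated ones. With 3 libraries a group, such a lack of overlap is, here and below, a description of the values. Its share over all genes is not given. The fold change was 1.85 (95% confidence interval 1.61 to 2.13), a log2 fold change of 0.89 with a standard error of 0.095 (edgeR, adjusted p = 1.73e-05). For the other alpha subunits the log2 fold change was 0.12 (SE 0.046, edgeR adjusted p = 0.150) for P4ha2 and 0.03 (SE 0.050, edgeR adjusted p = 0.849) for P4ha1, the subunit that supplies most of the message.

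Bmp1 (chr14:70474558-70520188, minus strand), the procollagen C-proteinase, counted 5350, 5392 and 5080 without TGF-β against 8618, 8533 and 8679 with it. These groups too did not overlap, and the spread within each was small beside the gap. The fold change was 1.63 (1.41 to 1.89), a log2 fold change of 0.71 with a standard error of 0.098 (edgeR, adjusted p = 0.000252). Pcolce (chr5:137605103-137613784, minus strand), which enhances the cut that Bmp1 makes, went the other way. Its normalised counts were 11267, 9393 and 9398 in untreated and 7384, 7914 and 7470 in treated libraries, so every treated library lay below every untreated one. The locus overlaps Fbxo24 and Gm36266, which had means of only 91.1 and 81.2 counts beside 8622 for Pcolce. The log2 fold change was -0.40 with a standard error of 0.071 (edgeR, adjusted p = 0.00213), which is 0.757-fold (0.682 to 0.841). The related enhancer Pcolce2 rose over the same comparison, with a log2 fold change of 1.04 (SE 0.1005, edgeR adjusted p = 6.00e-06). Its level per length stayed well below that of Pcolce: the ratio of Pcolce2 to Pcolce FPKM was 0.0721 ± 0.0137 (SD, n = 3) without TGF-β and 0.193 ± 0.00481 with it.

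Plod2 (chr9:92542223-92608428, plus strand), the lysyl hydroxylase of telopeptide cross-links, rose by a smaller step. Untreated libraries had 32221, 34910 and 34044 normalised counts and treated ones 40533, 38561 and 40379. All treated libraries were higher than all untreated ones, and the fold change was 1.18 (1.11 to 1.253), a log2 fold change of 0.24 with a standard error of 0.040 (edgeR, adjusted p = 0.00136). The other lysyl hydroxylases did not pass the threshold, with log2 fold changes of -0.07 (SE 0.076, edgeR adjusted p = 0.762) for Plod1 and -0.06 (SE 0.053, edgeR adjusted p = 0.662) for Plod3, and the intervals of both lay within -0.23 and 0.094. P3h1, the prolyl 3-hydroxylase, had a log2 fold change of 0.14 (SE 0.093, edgeR adjusted p = 0.511), and its treated libraries ran from 4389 to 5527 normalised counts, across the untreated range of 4572 to 4676.

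**Figure D2:**
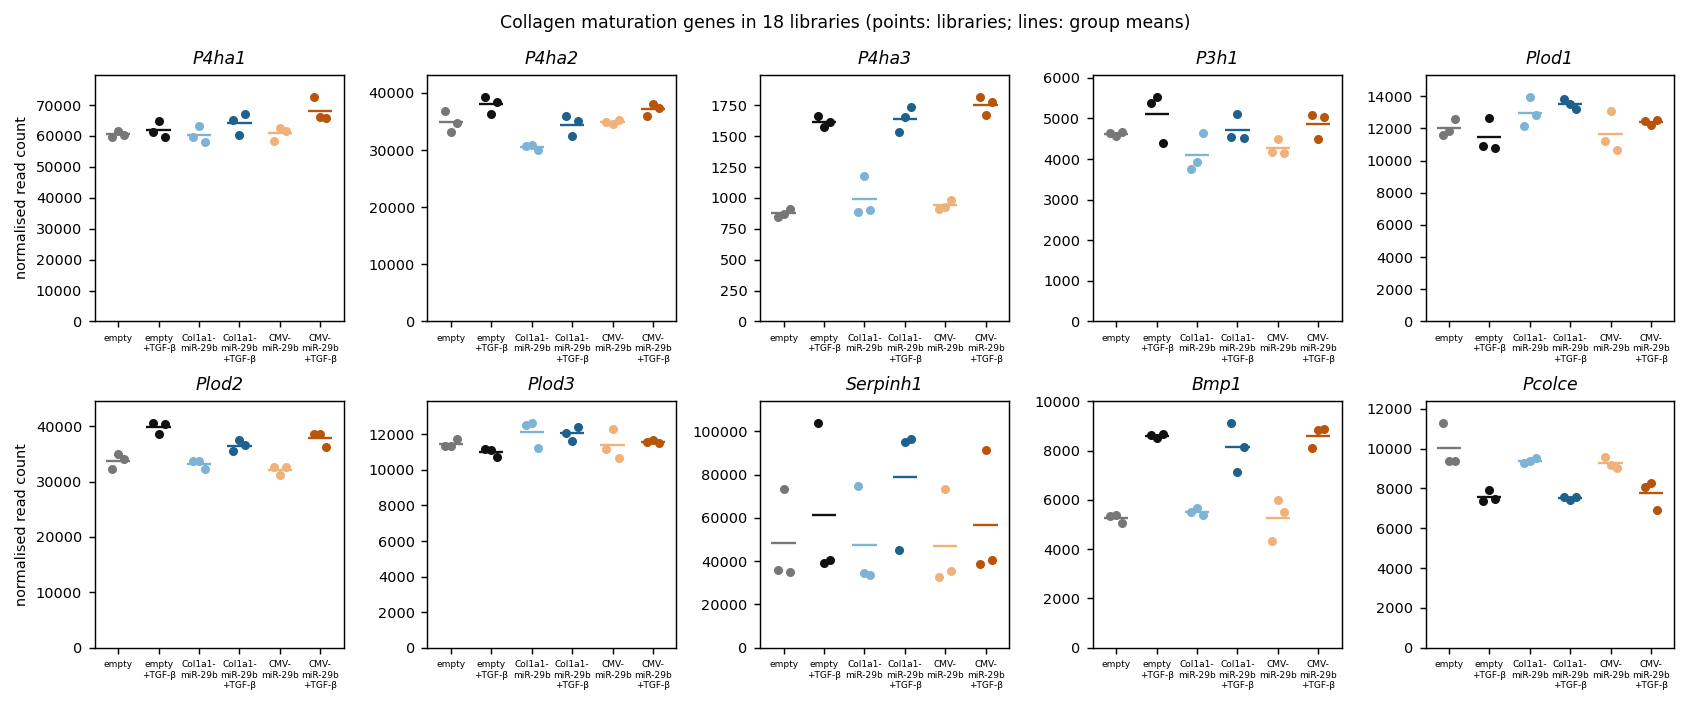
Normalised read counts (linear axes from 0) of the 10 collagen maturation genes, a panel for each, in the 6 groups of 3 libraries; points are libraries and lines are group means. P4ha3 and Bmp1 are higher and Pcolce lower in the TGF-β groups of every vector, and Serpinh1 has libraries far apart within each group.

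The same treatment was examined in cells with each miR-29b vector. P4ha3 and Bmp1 rose with TGF-β under all 3 vectors, Plod2 rose in empty vector and CMV-miR-29b cells, and Pcolce fell in empty vector and Col1a1-miR-29b cells, while 5 genes (P4ha1, P3h1, Plod1, Plod3 and Serpinh1) passed the threshold under none. In Col1a1-miR-29b cells 3 of 10 genes rose (P4ha2, P4ha3 and Bmp1), beside 3.0% of all genes tested, and 1 fell, beside 1.32%. In CMV-miR-29b cells 3 of 10 rose (P4ha3, Plod2 and Bmp1), beside 3.08% of all genes, and none fell, beside 1.87%.

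P4ha3 counted 890, 1181 and 900.0 (libraries c, d and unlettered) in untreated Col1a1-miR-29b cells and 1534, 1660 and 1736 with TGF-β, a log2 fold change of 0.73 with a standard error of 0.095 (edgeR, adjusted p = 0.000149). In CMV-miR-29b cells it counted 914, 928 and 981 without TGF-β against 1818, 1669 and 1775 with it, a log2 fold change of 0.90 with a standard error of 0.095 (edgeR, adjusted p = 1.71e-05). No untreated library reached a treated one under either vector.

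Bmp1 counted 5493, 5657 and 5394 in untreated Col1a1-miR-29b cells and 9113, 7128 and 8158 with TGF-β (log2 fold change 0.56, SE 0.098, edgeR adjusted p = 0.00258). In CMV-miR-29b cells its counts were 4326, 6012 and 5503 when untreated and 8099, 8849 and 8873 with TGF-β (log2 fold change 0.70, SE 0.098, edgeR adjusted p = 0.000302). Again the treated and untreated libraries did not overlap. With the Col1a1-miR-29b libraries limited to the lettered ones and the letter as a replicate block, Bmp1 had an edgeR adjusted p of 0.0876, and on the log2(FPKM + 1) scale a limma adjusted p of 0.0849.

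Pcolce counted 9262, 9375 and 9544 in untreated Col1a1-miR-29b cells and 7584, 7416 and 7586 with TGF-β, a log2 fold change of -0.32 with a standard error of 0.071 (edgeR, adjusted p = 0.015). This call was lost when library d (adjusted p = 0.0518) or the unlettered library (0.0524) of the untreated group, or library c (0.051) or d (0.0674) of the treated group, was left out. In CMV-miR-29b cells Pcolce counted 9589, 9183 and 9008 without TGF-β against 8074, 8270 and 6908 with it. The libraries did not overlap there either, and the log2 fold change of -0.26 (SE 0.071) had an edgeR adjusted p of 0.0502, which fell to 0.0432 without treated library d and to 0.0154 with DESeq2.

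Plod2 counted 32567, 31150 and 32581 in untreated CMV-miR-29b cells and 38512, 38662 and 36210 with TGF-β, a log2 fold change of 0.24 with a standard error of 0.040 (edgeR, adjusted p = 0.00178). In Col1a1-miR-29b cells it counted 33800, 33636 and 32224 without TGF-β against 35463, 37508 and 36583 with it, and the log2 fold change of 0.14 (SE 0.040) did not pass the threshold with edgeR (adjusted p = 0.0756) but did with DESeq2 (adjusted p = 0.0401). P4ha2 (chr11:54100095-54131662, plus strand) counted 30773, 30848 and 29933 in untreated Col1a1-miR-29b cells and 36035, 32402 and 35013 with TGF-β. Its log2 fold change there was 0.18 with a standard error of 0.046 (edgeR, adjusted p = 0.0399). The call was lost when any library of these groups but treated library d was left out, with adjusted p-values from 0.0794 (without untreated library d) through 0.115 (untreated c), 0.136 (treated unlettered) and 0.171 (treated c) to 0.179 (untreated unlettered).

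Whether a miR-29b vector altered the TGF-β response itself was tested as an interaction. It passed the threshold for 0 of the 10 genes and 0 of all genes tested (0% for either vector) with edgeR, where 961 genes for Col1a1-miR-29b and 1129 for CMV-miR-29b had an unadjusted p under 0.05, none of them among the 10, and DESeq2 called 21 and 19 genes, again none of the 10. For Plod2 the response in Col1a1-miR-29b cells was 0.10 lower than in empty vector cells on the log2 scale, with a 95% interval of the difference from -0.22 to 0.017. For P4ha3 that difference was -0.16 (interval -0.44 to 0.13), for Bmp1 -0.15 (-0.44 to 0.15) and for Pcolce 0.081 (-0.13 to 0.29). A gene that passed under 1 vector and missed under another is therefore not shown to respond differently.

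**Figure D3:**
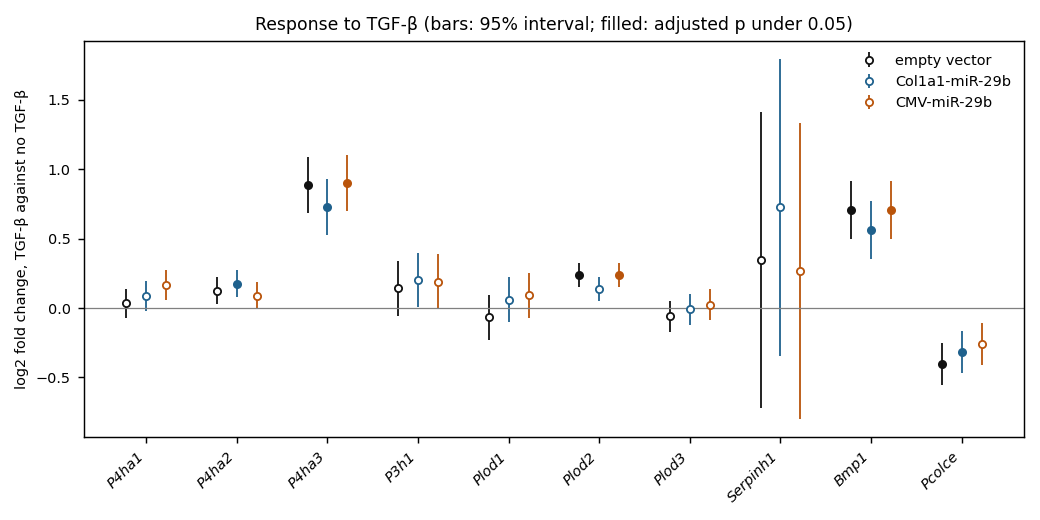
Log2 fold change with TGF-β against without TGF-β for each of the 10 genes in cells with the empty vector (black), Col1a1-miR-29b (blue) and CMV-miR-29b (orange), 3 libraries against 3; bars are 95% confidence intervals and filled points have an edgeR adjusted p under 0.05. P4ha3 lies between 0.73 and 0.90 and Bmp1 between 0.56 and 0.71 in the 3 vectors, Pcolce between -0.40 and -0.26, and the interval of Serpinh1 spans 0 in all 3.

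Serpinh1 (chr7:99345376-99353239, minus strand), the collagen chaperone Hsp47, differed so widely between libraries of the same group that the comparisons of its group means could not be resolved. Empty vector cells had normalised counts of 35852, 73571 and 35160 in libraries c, d and e without TGF-β, and 103748, 39387 and 40756 with it. Col1a1-miR-29b cells had 74711, 34760 and 33658 in libraries c, d and unlettered without TGF-β, and 45149, 95145 and 96457 with it. CMV-miR-29b cells had 32921, 73359 and 35487 in libraries c, d and e without TGF-β, and 38898, 91311 and 40420 with it. The values fell apart into 11 libraries of at most 45149 and 7 of at least 73359, with at least 1 of the higher kind in each of the 6 groups and no letter that held them all. Among the 11 lower libraries, those with TGF-β had 38898 to 45149 and those without it 32921 to 35852. Among the 7 higher ones, the counts were 91311 to 103748 with TGF-β and 73359 to 74711 without it. The treated libraries thus lay above the untreated ones on either side. This split was drawn from the same values, so the difference within each side was not tested. The FPKM values of the same gene spread likewise, from 160.2 to 494.1.

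The largest ratio between libraries of the same group was 2.63 for Serpinh1, while for the other 9 genes it ran from 1.08 (Plod2) to 1.39 (Bmp1). Such a spread was uncommon among abundant genes but not particular to Serpinh1: of 1848 genes with a mean of at least 10000 counts, 71 (3.84%) had a ratio over 2 within some group. With a mean of at least 1000 counts, it was 658 of 9434 genes (6.97%). No other annotated gene overlaps Serpinh1. Its log2 fold change with TGF-β was 0.35 in empty vector cells (SE 0.50, 95% interval -0.72 to 1.41, edgeR adjusted p = 0.835), 0.73 in Col1a1-miR-29b cells (SE 0.50, -0.34 to 1.80, edgeR adjusted p = 0.614) and 0.27 in CMV-miR-29b cells (SE 0.50, -0.80 to 1.33, edgeR adjusted p = 0.893). Leaving out treated library c turned the value in empty vector cells to -0.27, and leaving out treated library d turned that in CMV-miR-29b cells to -0.26. Each was the only library of its group among the higher ones. The interval in empty vector cells reached from 0.608-fold to 2.66-fold.

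The second question was whether the miR-29b vectors alter these genes. Under TGF-β, 0 of the 10 genes passed the threshold for Col1a1-miR-29b against the empty vector with edgeR, where 12.9% of all genes tested did. That share rests on 2738 genes, and 1291 to 3182 were called with 1 library left out: the count was 1291 without treated empty vector library e, 1666 without its library c, and 1498 without library c and 1810 without the unlettered library of the treated Col1a1-miR-29b cells. At an unadjusted p under 0.05 there were 4 of the 10, beside 5518 of the 21161 genes tested. DESeq2 called 3 of the 10 (P4ha2, Plod1 and Plod2), beside 3491 of the 33429 genes to which it gave a p-value. These include any low-count genes that it left without an adjusted p, so this share is not like that of edgeR. The fibrillar procollagens were measured in the same libraries: 7 of the 10 that were tested were lower with Col1a1-miR-29b, with a median log2 fold change of -0.51 against 0.0061 for the maturation genes and 0.019 over all genes tested. Among the named ones, Col1a1, the main chain of type I collagen, had a log2 fold change of -0.46 (SE 0.079, edgeR adjusted p = 0.00212), Col1a2 -0.63 (SE 0.095, edgeR adjusted p = 0.000986) and Col3a1, chosen here because its match is printed above, -0.87 (SE 0.109, edgeR adjusted p = 0.000449).

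The values nearest to the threshold belonged to 4 genes. Plod1 (chr4:147909753-147936767, minus strand) counted 10913, 12668 and 10784 in empty vector cells with TGF-β and 13846, 13500 and 13175 in Col1a1-miR-29b cells with TGF-β, a log2 fold change of 0.24 with a standard error of 0.076 (edgeR, adjusted p = 0.051). Plod2 counted 40533, 38561 and 40379 against 35463, 37508 and 36583, a log2 fold change of -0.13 with a standard error of 0.040 (edgeR, adjusted p = 0.0525). P4ha2 counted 39302, 36395 and 38375 against 36035, 32402 and 35013, a log2 fold change of -0.14 with a standard error of 0.046 (edgeR, adjusted p = 0.0561). Of these 3 genes, Plod1 was higher and Plod2 and P4ha2 were lower in Col1a1-miR-29b cells.

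Without library d of the treated empty vector group these 3 genes passed, at adjusted p-values of 0.0136 for Plod1, 0.0303 for Plod2 and 0.0253 for P4ha2, and without library c of the treated Col1a1-miR-29b group P4ha2 passed at 0.0461. Plod3 (chr5:136987019-136996648, plus strand) had a log2 fold change of 0.13 (SE 0.053, edgeR adjusted p = 0.124). Its locus overlaps Znhit1 on the other strand, which had a mean of 1879 counts beside 11597 for Plod3. For the 9 genes other than Serpinh1, every 95% interval lay between -0.31 and 0.40 on the log2 scale. For the genes with a match to the seed, the log2 fold change was -0.11 (SE 0.093) for P3h1, 0.24 for Plod1 and 0.36 (SE 0.50, not resolved) for Serpinh1. Among those without a match, P4ha2 and Plod2 had negative values and Plod3 a positive one. The group mean of P3h1 was below that of empty vector cells for both vectors, with and without TGF-β, never past the threshold. That of Plod1 was above it in all but CMV-miR-29b cells without TGF-β. Whether a match goes with a lower level was not tested.

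CMV-miR-29b, which gave far more Mir29b-1 counts, was compared with the empty vector in the same way. With TGF-β, 0 of the 10 genes passed the threshold with edgeR, beside 0.00945% of all genes tested (2 of 21161), and DESeq2 called 0 of the 10. The share over all genes was unstable, since 160 genes were called without treated empty vector library d, 7 without its library c, 3 or 4 without any 1 of the other libraries, and 294 with DESeq2. At an unadjusted p under 0.05 there was 1 of the 10, beside 2531 of the 21161 genes tested. The log2 fold changes ran from -0.11 for Serpinh1 (SE 0.50) to 0.14 for P4ha1 (SE 0.050, edgeR adjusted p = 0.303), which is the gene at an unadjusted p under 0.05. P4ha1 (chr10:59323296-59373304, plus strand) counted 61272, 64903 and 59640 in empty vector cells with TGF-β and 72619, 66196 and 65862 in CMV-miR-29b cells with TGF-β. For the 9 genes other than Serpinh1 the intervals lay between -0.26 and 0.32. Of the 10 fibrillar procollagens tested, 0 passed with edgeR and 7 had an unadjusted p under 0.05, their median log2 fold change was -0.30, and for Col3a1 it was -0.65 (SE 0.109, edgeR adjusted p = 0.0559).

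**Figure D4:**
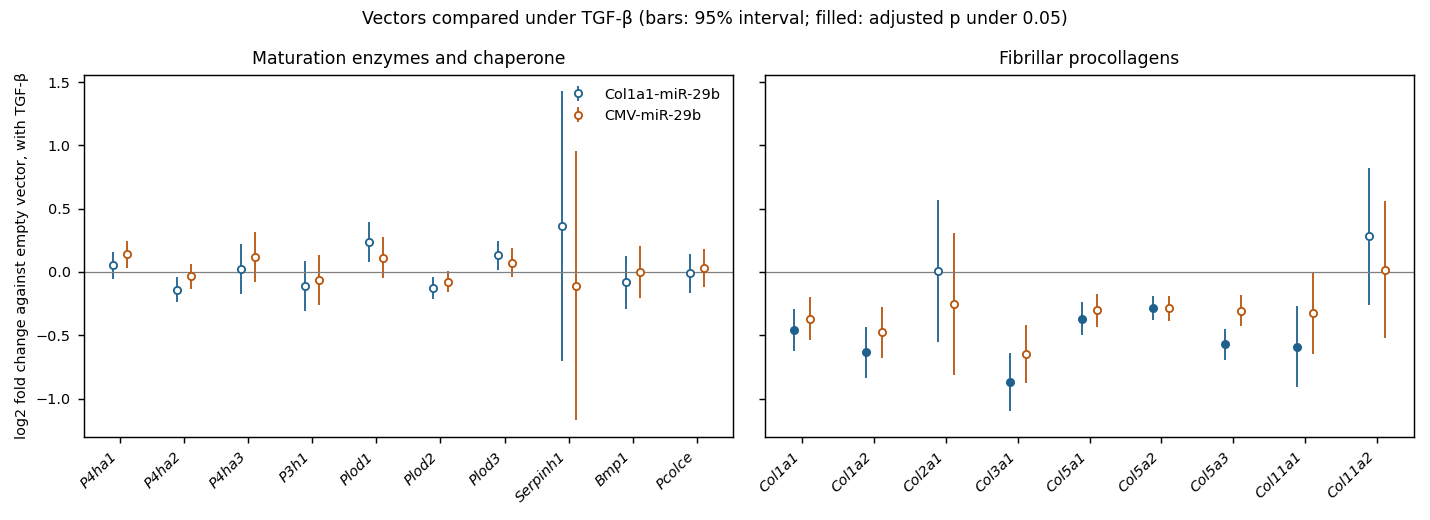
Log2 fold change against the empty vector, all with TGF-β, for the 10 maturation genes (left) and 9 fibrillar procollagens (right; those with a group mean of at least 100 normalised counts), for Col1a1-miR-29b (blue) and CMV-miR-29b (orange), 3 libraries against 3; bars are 95% confidence intervals and filled points have an edgeR adjusted p under 0.05. The maturation genes lie on both sides of 0 with no filled point, while 7 procollagens have filled points below 0 for Col1a1-miR-29b.

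Without TGF-β, P4ha2 was the gene of the 10 that passed the threshold for Col1a1-miR-29b against the empty vector, beside 6.27% of all genes tested. These were 1327 genes, and 468, 567 and 1043 without empty vector library c, d or e and 823, 482 and 640 without Col1a1-miR-29b library c, d or the unlettered one. P4ha2 counted 36818, 33115 and 34719 in empty vector cells and 30773, 30848 and 29933 in Col1a1-miR-29b cells, with no overlap. The log2 fold change was -0.19 with a standard error of 0.046 (edgeR, adjusted p = 0.0235), and the call was lost without library c of the empty vector group (adjusted p = 0.0806) or without the unlettered Col1a1-miR-29b library (0.0713). P4ha3 had the highest value of the 10, 0.18 (SE 0.095, edgeR adjusted p = 0.298). For CMV-miR-29b without TGF-β, 0 of the 10 passed with edgeR, beside 0.00473% of all genes. At an unadjusted p under 0.05 there were 0 of the 10, beside 1156 of the 21161 genes tested. DESeq2 called 0 of the 10, beside 37 of the 33429 genes to which it gave a p-value. Values there ran from -0.11 for P3h1 (chr4:119232915-119248975, plus strand; SE 0.093) to 0.10 for P4ha3 (SE 0.095).

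The other genes of collagen maturation and secretion give the setting of these values. Of 20 tested (23 listed), 8 rose with TGF-β in empty vector cells and none fell, beside 3.88% and 2.01% of all genes tested. The same 8 rose in cells with each miR-29b vector, beside 3.0% of all genes for Col1a1-miR-29b and 3.08% for CMV-miR-29b. They include Creb3l1, a membrane-bound transcription factor of procollagen secretion, with a log2 fold change of 1.21 (SE 0.084, edgeR adjusted p = 1.35e-07), Pcolce2, given above, Sparc, a collagen-binding matrix protein, with 0.40 (SE 0.043, edgeR adjusted p = 2.16e-05), and Sec24d, a coat protein of the vesicles that carry procollagen, with 0.38 (SE 0.054, edgeR adjusted p = 0.000339). The median of the list was 0.18. The remaining 4 were P4hb, the beta subunit of prolyl 4-hydroxylase, Fkbp10, Fkbp14 and Sec23a, named here to complete the count. Colgalt1, a galactosyltransferase of collagen, named here after its values were seen, had a log2 fold change of -1.02 (SE 0.364) that did not pass the threshold (edgeR, adjusted p = 0.138). In the compared groups it counted 13994 to 15040 without TGF-β and 6857 to 7851 with it. Its libraries differed by up to 2.35-fold in untreated Col1a1-miR-29b cells, and the test uses 1 estimate of the spread for all 6 groups.

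For Col1a1-miR-29b against the empty vector with TGF-β, 3 of the 20 were lower and 1 was higher, beside 1615 lower and 1123 higher of the 21161 genes tested. Sec24d was lower, with a log2 fold change of -0.43 (SE 0.054, edgeR adjusted p = 0.000449), and the others were P4hb and Sec23a, which were lower, and Crtap, the partner of P3h1, which was higher at 0.35. For CMV-miR-29b with TGF-β 0 of the 20 passed with edgeR, beside 2 of the 21161 genes tested. The general chaperones of the endoplasmic reticulum, which fold proteins of all kinds, numbered 10. With TGF-β in empty vector cells 1 of them rose, beside 3.88% of all genes tested. It was Pdia4, by 0.12 on the log2 scale (SE 0.033, edgeR adjusted p = 0.0424). With Col1a1-miR-29b under TGF-β 5 of the 10 were lower, beside the same 1615 of 21161 genes, Pdia4 by a log2 fold change of -0.19.

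P4ha1, P4ha2 and Plod2 are also known as genes that low oxygen induces, so 12 entries of other hypoxia-inducible genes were counted, which are 11 genes, with Aldoa entered under 2 identifiers and Ero1a not tested. Of the 12 entries 1 rose with TGF-β under the empty vector, beside 3.88% of all genes tested. It was Vegfa, a growth factor of blood vessels, with a log2 fold change of 0.48 (SE 0.060, edgeR adjusted p = 8.06e-05). The median of the list was 0.0076. With Col1a1-miR-29b under TGF-β 5 of the 12 entries were lower and none higher, beside 1615 lower and 1123 higher of the 21161 genes tested. Vegfa had a log2 fold change of -0.25 there (SE 0.060, edgeR adjusted p = 0.0139).

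The substrates of these enzymes had larger responses. In empty vector cells 8 of the 10 fibrillar procollagens tested rose with TGF-β, beside 3.88% of all genes tested. The median log2 fold change of the 10 procollagens was 1.17, beside 0.13 for the 10 maturation genes. It was 1.97 for Col11a1 (SE 0.156, edgeR adjusted p = 6.82e-07), 1.48 for Col1a2, 1.26 for Col5a3 and 1.26 for Col1a1. The ratio of P4ha1 to Col1a1 FPKM was 1.31 ± 0.108 (SD, n = 3) without TGF-β and 0.564 ± 0.0646 with it. For Bmp1, which itself rose, the ratio to Col1a1 was 0.0530 ± 0.00366 without TGF-β and 0.0363 ± 0.00223 with it. In CMV-miR-29b cells with TGF-β the ratio of P4ha1 to Col1a1 was 0.799 ± 0.0560 (n = 3), and in Col1a1-miR-29b cells with TGF-β it was 0.781 ± 0.0534 (n = 2). In every vector the untreated libraries had more P4ha1 per Col1a1 than the treated ones, with no overlap of the ranges.

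As a description over the 18 libraries, which share the 6 groups and so the TGF-β contrast, the 3 genes that rose in empty vector cells varied together. Pearson's r of log2(CPM + 1), where CPM is the count scaled to a common library size, was 0.92 between P4ha3 and Bmp1, 0.85 between P4ha3 and Plod2 and 0.82 between Plod2 and Bmp1. Pcolce ran opposite to them, at -0.90 with P4ha3, -0.86 with Bmp1 and -0.78 with Plod2. Plod1 and Plod3 had an r of 0.75 with each other, and the highest r of Serpinh1 with any of the other 9 was 0.37, with Plod2. Among the 13912 genes that averaged 1 CPM or more, the gene outside the list most like P4ha3 was Ccn2 (r = 0.98), a matricellular growth factor, that most like Bmp1 was Csrp2 (r = 0.98), that most like P4ha2 was Pdia6 (r = 0.96), a disulfide isomerase, and that most like Plod2 was Chst3 (r = 0.96). For the others the highest r was 0.94 for Pcolce with Spib, 0.93 for Plod1 with Sidt2, 0.85 for Plod3 with Rhobtb2, 0.81 for P4ha1 with Qsox1, 0.79 for P3h1 with Rnf144b and 0.77 for Serpinh1 with Lyrm1. These are the highest of many values and carry no test.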

How the data were processed

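Poly(A) RNA of 18 libraries was read as paired ends, trimmed with cutadapt, mapped with HISAT2 and assembled with StringTie, per the study's methods with Ensembl release 96. The labels name mm9, but the gene coordinates are those of GRCm38. The counts deposited by the authors are whole numbers per gene without normalization, and how they were taken from the assemblies is not given in the sources used here. The deposited FPKM values were scaled by the authors for length and depth. In both Col1a1-miR-29b groups the third count column bears a letter absent from the sample titles, so it was used as an unlettered library of its group, while its FPKM column was set aside (2 in all), leaving 16 libraries for FPKM.

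The main tests were run in edgeR 4.0.16 under R 4.3.3 (low-count filter filterByExpr, TMM normalization, 6 group means, quasi-likelihood F tests, Benjamini-Hochberg adjustment over 21161 genes). Standard errors were derived from the F statistic. The scripts were tested on simulated data. Members and gene lists were chosen with earlier results of these data known. The rule for names took all 10 genes, up to 4 genes of each other list with the largest change among those past the threshold with TGF-β in empty vector cells, and the most alike gene of each of the 10. For CMV-miR-29b, and for Col1a1-miR-29b without TGF-β, genes that missed the threshold are given mostly as ranges against the empty vector. Krt14, Cdh5 and Pdgfrb were also named by that rule: their log2 fold changes with TGF-β in empty vector cells were 1.53, 1.74 and 0.83. Alternatives were DESeq2 1.42.0 and its size factors, total-count scaling, a looser filter, the compared groups alone, a replicate block, lettered libraries without the block, counts divided by 4, limma 3.58.1 on log2(FPKM + 1) and log2(FPKM + 0.1), and leaving out each library. Matches in 3' UTRs were read from the GENCODE M21 annotation, whose coordinates equal those deposited for 8 of the 10 genes, P4ha2 and Bmp1 being the exceptions.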

Additional observations from a re-analysis of the deposited data

How the results depend on the processing

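Of the calls on single genes, those with TGF-β in empty vector cells and in CMV-miR-29b cells held in all alternatives run. Of the 10 genes, 4 responded to TGF-β under Col1a1-miR-29b, and 5 with DESeq2 (Plod2 added), 3 with total counts, the looser filter or the compared groups alone, 1 with the replicate block and with limma on log2(FPKM + 1) and log2(FPKM + 0.1), 2 with lettered libraries alone, and 2 to 3 with a library left out. For Col1a1-miR-29b against the empty vector with TGF-β it was 0, and 3 with DESeq2, 2 with DESeq2 size factors, 1 with scaling by total counts, 3 with counts divided by 4, and 0 to 3 with a library left out. Without TGF-β it was 1, and 0 with the compared groups alone, the replicate block, lettered libraries alone and limma on either FPKM scale, and 0 to 1 with a library left out. With TGF-β in CMV-miR-29b cells it was 3, and 4 (Pcolce added) with DESeq2, DESeq2 size factors, total counts, counts divided by 4 or without treated library d. The count was 4 throughout for TGF-β in empty vector cells and 0 throughout for CMV-miR-29b against the empty vector and for both differences in response. Same-letter libraries showed no shared deviation on average: on 11216 genes, they deviated from their group means with an average r of 0.013 (36 pairs), against -0.0066 for 70 other pairs. Whether a letter marks a repeated experiment cannot be told from this. Among the lettered libraries the block changed the 1076 genes called with TGF-β in empty vector cells to 932. For Col1a1-miR-29b against the empty vector without TGF-β, it changed 397 genes to 161. The 1245 genes called with TGF-β in empty vector cells with all libraries were 725 without treated library e.

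Changes of sign were seen only in values that did not pass the threshold, before or after. P4ha1 with TGF-β in empty vector cells was -0.0037 with total counts, -0.0031 on both FPKM scales and -0.012 to 0.047 with a library left out, and in Col1a1-miR-29b cells -0.00014 and -0.00015 on the FPKM scales. For Col1a1-miR-29b against the empty vector with TGF-β, P4ha3 was -0.0081 with the replicate block, -0.023 with lettered libraries alone and -0.024 to 0.070 with a library left out, Serpinh1 was -0.10 with the replicate block, and Pcolce was 0.025 with total counts, 0.018 and 0.019 on the FPKM scales and -0.041 to 0.014 with a library left out. With a library left out, Plod3 with TGF-β ran from -0.069 to 0.026 in Col1a1-miR-29b cells and from -0.028 to 0.078 in CMV-miR-29b cells, and Serpinh1 from -0.27 to 0.78 in empty vector cells, from -0.26 to 0.73 in CMV-miR-29b cells, and from -0.62 to 0.50 for CMV-miR-29b against the empty vector with TGF-β. Among the values of the 3 other vector comparisons that the text gives as ranges, 53 of 384 changed sign, none of them past the threshold. With 3 libraries a group, the spread of Serpinh1 limits what could be seen for it, as its intervals show.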
